A study of Mus musculus with 26 samples.

Results

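EA2 and EA3, mouse lung adenocarcinoma cell lines that carry the EML4-ALK fusion, were set against each other while both were held in alectinib, an inhibitor of the ALK kinase. The comparison took 8 of the 26 libraries of the series: the 4 alectinib libraries of EA3 (labelled EA3_Alectinib, cells grown with 100 nM of the drug for 1, 2, 3 and 5 days) and the 4 alectinib libraries of EA2 grown with the drug for the same days. The question was how far the transcriptomes of tumour lines with one oncogenic fusion differ while that oncogene is inhibited. Both lines came from C57BL/6 mice and express variant 1 of the fusion from an event induced in the lung with adenovirus that carries Cas9 and guide RNAs. EA2 was a gift from another laboratory and EA3 was made at the institution of the study, so line, animal and laboratory of origin cannot be told apart, and each is 1 line. The same lines kept in DMSO, the solvent of the drug, on the same days gave 4 libraries each and are used only to read the alectinib values beside them. Each line had 1 library per treatment and day, so the days stand in for replicates, day entered every test as a block, and the p-values measure the spread between these libraries only. Series of 4 values are given in the order of days 1, 2, 3 and 5 throughout. These days are those of the sample labels, while the treatment protocol in the labels names days 1, 3, 5 and 7, a difference that was not resolved and that bears on every value given by day. The study itself states a range of 1 to 5 days, which holds the days used here and leaves out day 7.

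The fusion joins the self-associating part of the microtubule-binding protein EML4 to the kinase of ALK, a receptor tyrosine kinase that lung epithelium does not normally use, and the joined protein signals through RAS and MAPK, PI3K and STAT3 without ligand. Lung adenocarcinoma arises from airway and alveolar epithelium, whose cells are held together by E-cadherin, claudins and desmosomes and are braced by keratins. Carcinoma cells can lose this program in part or in whole, a change known as epithelial-mesenchymal transition, in which repressors such as SNAI2, TWIST1 and the ZEB proteins bind E-box elements in the promoters of epithelial genes.

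Reads counted per gene summed to between 5780062 and 9515225 in the 4 EA2 libraries and between 8977031 and 10403905 in the 4 EA3 libraries. Over the genes tested, Pearson correlations of log2 CPM (the read count of a gene per unit of library size, scaled with TMM factors) ran from 0.944 to 0.967 among the EA2 libraries, from 0.92 to 0.973 among the EA3 libraries, and from 0.753 to 0.819 between the lines. The series also holds 2 libraries labelled EA3 of day 7, for which EA2 has no partner. They resembled EA2 more than EA3 (r of 0.963 to 0.986 with EA2 and 0.8 to 0.821 with EA3 in alectinib), and no value here rests on them. Markers of lung epithelium were only partly present. The summed level of 41 epithelial genes was 1348 to 2042 CPM in EA2 and 5349 to 11890 CPM in EA3, while Sftpc, the surfactant protein that defines alveolar type 2 cells, was at 0 in every alectinib library of EA3 and had 1 count in 1 of the 4 of EA2.

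Of 12190 genes tested with edgeR's quasi-likelihood test (adjusted p under 0.05), 2109 were higher in EA3 (17.3%) and 1736 were lower (14.2%). At a difference of 1 or more on the log2 scale, 1461 were higher and 831 lower. The difference kept 1 sign on 4 of 4 days for 3821 of the 3845 genes called. Lines are called apart, or not overlapping, where every library of one lies above every library of the other. Many genes so described were named for a small p-value or a large difference, so this adds no evidence beyond the call. Leaving out day 2, which leaves 3 libraries a line, brought the calls down to 1903, and below, where leaving out 1 day ended or added a call of a gene whose test is given, or moved a list's count in alectinib or a ratio to a near-silent line by over 1.5 times, the value without that day stands beside it, and so does the adjusted p under any other setting that changed such a call. The counts of each list below are read beside the 17.3% of all genes called higher and the 14.2% called lower. With day 1, 2, 3 or 5 left out these shares were 13.6%, 9.99%, 14.5% and 15.2% higher and 8.61%, 5.47%, 10.4% and 12.1% lower, and a count without a day is read beside the shares without it. The filter on low counts keeps a gene that is high in 1 line and silent in the other, and such a gene could hardly come out otherwise than called. Of the 2109 higher genes 465 passed through EA3 alone (no EA2 library at the 1.14 CPM that the filter asks for), and of the 1736 lower genes 115 passed through EA2 alone. Over the 11594 genes present in both lines by this measure, 14.2% were higher and 13.98% lower. Where at least 2 higher genes of a list passed through EA3 alone, the count without them is given. Many of the largest differences were between a high level and none. By a cut of at most 3 counts in every alectinib library of one line and 50 CPM or more on average in the other, 24 genes were on in EA3 and off in EA2, and 0 were on in EA2 and off in EA3 (Epcam, Pxdn, Cldn4, Lbp, Slc39a4 and Tns4 led the first set). The 0 depends on the cut: Sox2, at 49.2 CPM on average in EA2 and at most 2 counts in EA3, lay just under it, as did Kcnn3 on the other side, at 48.6 CPM in EA3 and at most 1 count in EA2, and next in EA2 came Galnt13 at 37.1 CPM and Nlrp2 at 33.8 CPM. In DMSO, 12040 genes were tested, 1922 were higher in EA3 (16%) and 1621 lower (13.5%), a split that another scaling changed: with library size alone, 1554 were higher and 2380 lower.

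**Figure D1:**
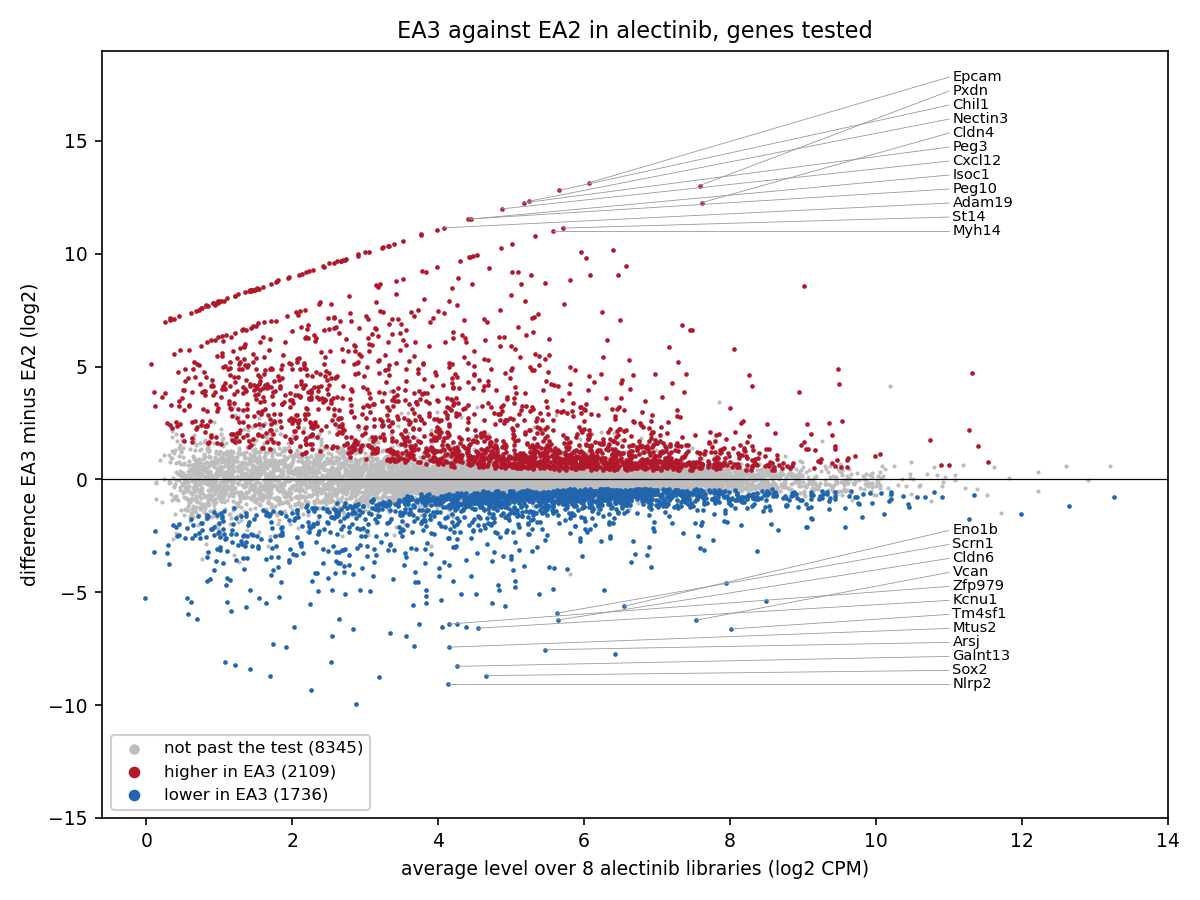
Difference between the lines for each gene tested in alectinib: the x axis is the average log2 CPM over the 8 libraries, the y axis the fitted log2 difference EA3 minus EA2, and coloured points are genes past an adjusted p of 0.05. The 2109 genes higher in EA3 reach further from 0 than the 1736 lower ones, and the 12 named genes on each side lie at the edges.

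Epithelial junction and keratin genes were higher in EA3 with few exceptions. Of 39 epithelial genes tested (of 41 in the table), 35 were higher in EA3, 1 was lower (Cldn6) and 3 did not pass the test (Dsp, Pkp2 and Tjp1), beside 17.3% and 14.2% of all genes. Of the 35 higher, 20 passed the filter through EA3 alone, and of the 19 present in both lines 15 were higher and 1 lower. Leaving out day 1 gave 2 lower. The 3 that did not pass had adjusted p = 0.0983, or 0.0173 to 0.0414 with DESeq2 and all 12 alectinib libraries in 1 fit for Dsp, adjusted p = 0.115, or 0.0491 without day 1, and 0.0453 to 0.0489 with all 12 alectinib libraries in 1 fit and no day block for Pkp2, and adjusted p = 0.0758, or 0.0282 to 0.0404 with DESeq2, all 12 alectinib libraries in 1 fit and no day block for Tjp1. Where they passed, Dsp and Pkp2 were lower in EA3 and Tjp1 was higher. The log2 difference was -1.07 for Dsp with DESeq2, -0.70 for Pkp2 without day 1 and 0.60 for Tjp1 with DESeq2. Over the epithelial genes tested the median log2 difference was 6.16, against 0.02 over all genes tested, and the medians of the daily differences (log2 CPM with a prior count of 2, which draws genes near 0 together) lay between 5.09 and 5.29. Epcam, the adhesion molecule of simple epithelia (mm10 chr17:87635979-87651129, + strand), had 0 counts in the 4 EA2 libraries and 132, 150.2, 139 and 90 CPM in EA3, at least 1394-fold higher when EA2 is set at 3 counts over its 4 libraries (adjusted p = 0.000566). Cldn4, a claudin of the tight junction, stood at 0, 0.36, 0 and 0 CPM in EA2 and 509, 498, 360.4 and 132 CPM in EA3, a ratio of 6175-fold with a counting interval of 1709 to 50991 (adjusted p = 6.13e-05, 3786-fold without day 1 and at least 3096-fold without day 2). Krt7, a keratin of simple ducts and lung epithelium, was at 2.37, 3.06, 3.57 and 1.27 CPM in EA2 and 1413, 1314, 707 and 525 CPM in EA3 (log2 difference 8.58, SE 0.34, adjusted p = 6.13e-05). All 3 genes were silent or low in every EA2 library and far higher in every EA3 library, and both Cldn4 and Krt7 were lowest in EA3 on day 5. Part of the program was shared. Cdh1, which encodes E-cadherin, was read at 189, 149, 283 and 159 CPM in EA2 and at 1313, 1172, 662 and 1091 CPM in EA3 (log2 difference 2.49, SE 0.33, adjusted p = 0.00272). Krt8 followed with 75.5, 54.2, 10.5 and 62.5 CPM against 2267, 1533, 844 and 649.6 CPM (log2 difference 4.87, SE 0.51, adjusted p = 0.00145). Its partner Krt18 was abundant in both lines, with 636, 619, 520.1 and 245 CPM in EA2 and 1061, 846, 834 and 448 CPM in EA3 (log2 difference 0.72, SE 0.15, adjusted p = 0.0132, or 0.0551 without day 1, and 0.137 with no day block). The lines did not overlap for Cdh1 or Krt8 and overlapped for Krt18.

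The other leading members of the group belong to junctions, to the cell cortex and to the membrane proteases of epithelia. Cldn7 had 0.206, 0.18, 0.115 and 0.116 CPM in EA2 and 94.5, 74, 71 and 24.9 CPM in EA3 (log2 difference 8.64, SE 0.26, adjusted p = 4.73e-05). Lad1, a protein of the anchoring filaments beneath epithelia, had 0.413, 0.36, 0.345 and 0.116 CPM against 255, 201, 157 and 61 CPM (log2 difference 9.05, SE 0.20, adjusted p = 2.37e-05). Cldn3 had 2.37, 2.88, 2.07 and 1.04 CPM against 191, 182, 166 and 57.7 CPM (log2 difference 6.16, SE 0.18, adjusted p = 4.73e-05). Each of these was higher in every EA3 library than in any EA2 library, with the lowest EA3 value on day 5. Myh14, a non-muscle myosin of the apical belt, had 0.103, 0, 0 and 0 CPM in EA2 and 98.6, 104, 106 and 53.7 CPM in EA3, a ratio of 2976-fold with a counting interval of 534 to 117590.0 (adjusted p = 4.83e-05, at least 676-fold without day 1). St14, the membrane protease matriptase, had 0, 0, 0.115 and 0 CPM against 128, 125, 106 and 40.5 CPM, a ratio of 3295-fold with a counting interval of 591 to 130180.0 (adjusted p = 4.83e-05, 2087-fold without day 1 and at least 790.3-fold without day 3). Cldn6, a claudin of embryonic epithelium, ran the other way, with 217, 111, 29.2 and 29.6 CPM in EA2 and 1.14, 1.12, 1.72 and 0.11 CPM in EA3 (log2 difference -6.23, SE 0.64, adjusted p = 0.00139), and its EA2 level was highest on day 1. In DMSO, 34 of 38 epithelial genes were higher in EA3 and 1 was lower.

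The promoters of Epcam, Cldn4, Krt7 and Krt8 are shown because these genes separate the lines. RefSeq windows of 250 bases before the transcription start (build GRCm38.p6, read 5′ to 3′ on the strand of the gene) were searched for the E-box CACCTG and its reverse complement CAGGTG, printed in capitals. The 4 genes were chosen for display with the result of the search known.
Epcam: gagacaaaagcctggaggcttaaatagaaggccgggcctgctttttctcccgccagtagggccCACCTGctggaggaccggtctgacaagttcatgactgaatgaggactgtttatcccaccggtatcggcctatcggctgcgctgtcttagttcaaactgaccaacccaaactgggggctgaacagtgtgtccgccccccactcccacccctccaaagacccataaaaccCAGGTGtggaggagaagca
Cldn4: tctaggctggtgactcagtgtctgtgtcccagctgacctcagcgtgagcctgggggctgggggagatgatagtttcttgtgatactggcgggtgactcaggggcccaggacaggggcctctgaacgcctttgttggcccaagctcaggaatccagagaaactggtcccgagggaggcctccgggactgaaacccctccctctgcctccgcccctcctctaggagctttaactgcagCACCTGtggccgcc
Krt7: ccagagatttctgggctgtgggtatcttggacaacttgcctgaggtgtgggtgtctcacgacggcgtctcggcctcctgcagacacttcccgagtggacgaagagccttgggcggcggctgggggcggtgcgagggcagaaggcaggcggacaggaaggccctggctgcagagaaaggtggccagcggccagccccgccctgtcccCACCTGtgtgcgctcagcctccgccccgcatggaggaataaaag
Krt8: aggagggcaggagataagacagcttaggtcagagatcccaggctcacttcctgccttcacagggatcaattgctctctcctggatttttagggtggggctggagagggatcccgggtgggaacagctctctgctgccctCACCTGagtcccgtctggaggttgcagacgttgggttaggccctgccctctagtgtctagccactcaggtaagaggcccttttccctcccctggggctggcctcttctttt
The Epcam window (chr17:87635729-87635978, + strand) holds the motif 187 and 19 bases before the start. The Cldn4 window (chr5:134946935-134947184, - strand) holds it 14 bases before, the Krt7 window (chr15:101412153-101412402, + strand) 44 bases before, and the Krt8 window (chr15:102004343-102004592, - strand) 111 bases before. Among all 31387 autosomal windows of the table, 5469 (17.4%) hold the motif. No share is given for smaller sets, because a window was found for 22 of the 35 epithelial genes higher in EA3 and for 9157 of the 12190 genes tested, and the 4 genes shown say nothing on how often the motif occurs in the list. A match describes the letters and not the use of a site, and whether any repressor has a part in the line difference was not tested.

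**Figure D2:**
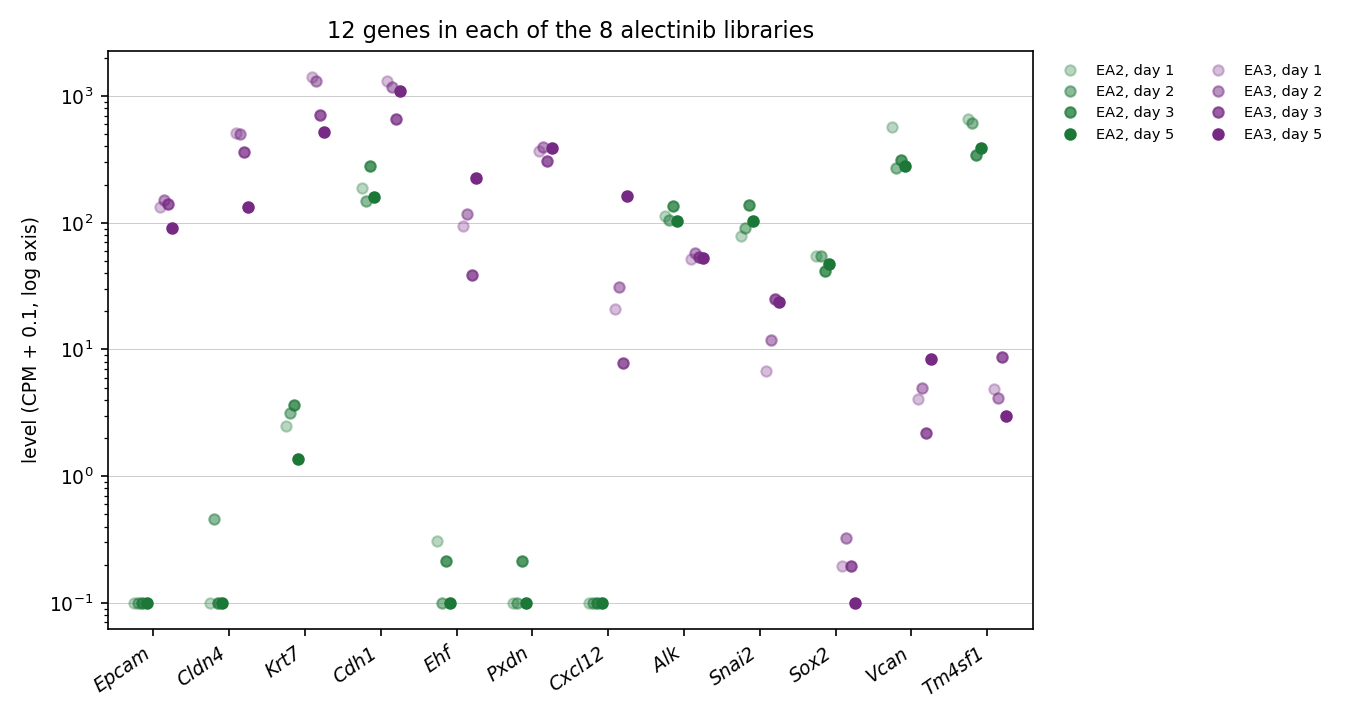
Level of 12 genes in each of the 8 alectinib libraries on a log axis: each point is 1 library (CPM, with 0.1 added so that 0 can be drawn), EA2 and EA3 are side by side, and shading of the points runs from day 1 to day 5. Epcam, Cldn4, Pxdn, Ehf and Cxcl12 sit at or near the floor in every EA2 library and Sox2 in every EA3 library, while Vcan and Tm4sf1 stay at or under 8.61 CPM in EA3.

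Mesenchymal genes were divided. Of 29 tested, 6 were higher and 12 lower in EA3, with a median log2 difference of -0.49 and daily medians from -0.77 to -0.23. Omitting day 2 gave 3 higher. The repressors Snai2 and Twist1 were among the lower genes. Snai2 had 78.2, 90.3, 139 and 103 CPM in EA2 and 6.64, 11.8, 24.7 and 23.6 CPM in EA3 (log2 difference -2.72, SE 0.26, adjusted p = 0.000847). Twist1 had 84.7, 108, 101 and 78.5 CPM against 18.6, 23.4, 19.9 and 24.6 CPM (log2 difference -2.06, SE 0.17, adjusted p = 0.000525). Zeb2 was at 94.5, 91.4, 131 and 119.9 CPM in EA2 and 32.5, 48, 63.8 and 81.3 CPM in EA3 (log2 difference -0.98, SE 0.18, adjusted p = 0.00919), whereas Zeb1, at 54.1, 53.4, 98.8 and 89.7 CPM and 52.6, 58.4, 56 and 79.7 CPM, did not pass the test (log2 difference -0.19, adjusted p = 0.466). The ranges of the lines were apart for Snai2, Twist1 and Zeb2 and overlapped for Zeb1. The contractile filament gene Tpm2 had 397, 430.4, 256 and 324 CPM in EA2 and 54.1, 38.3, 27 and 37.7 CPM in EA3 (log2 difference -3.14, SE 0.17, adjusted p = 0.000109). Acta2, smooth muscle actin, had 50.4, 382, 127 and 1336 CPM against 2.37, 9.78, 14.4 and 27.8 CPM (log2 difference -4.60, SE 0.47, adjusted p = 0.00138), with its EA2 level highest on day 5. Vim, which encodes vimentin, was abundant in both lines, at 4327, 5611, 7118 and 6565 CPM in EA2 and 2543, 1997, 1600.0 and 1899 CPM in EA3 (log2 difference -1.52, SE 0.26, adjusted p = 0.00701). All 3 were lower in every EA3 library than in any EA2 library. Among the members higher in EA3 were the lysyl oxidases Lox, Loxl1 and Loxl2 (for Loxl2 adjusted p = 0.0145, or 0.0589 without day 2), the membrane metalloprotease Mmp14 and the secreted Spp1 (adjusted p = 0.0462, or 0.119 without day 2 and 0.121 without day 3, and 0.058 to 0.283 with at least 10 counts in every library and no low-count filter). Vim did not pass the test in DMSO, where it had 3233, 3507, 3352 and 3086 CPM in EA2 and 3334, 2869.5, 2556 and 3611 CPM in EA3 (log2 difference -0.10, adjusted p = 0.743), and the alectinib difference exceeded the DMSO difference in size (log2 -1.41, SE 0.23, adjusted p = 0.0146, or 0.068 without day 2, 0.107 without day 3 and 0.0793 without day 5). Fibroblast and smooth muscle markers summed to 258.9 to 1487 CPM in EA2 and 99.3 to 324.6 CPM in EA3. Tcf21 was at 0 in both lines, and the part of these markers in the mesenchymal difference was not tested.

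**Figure D3:**
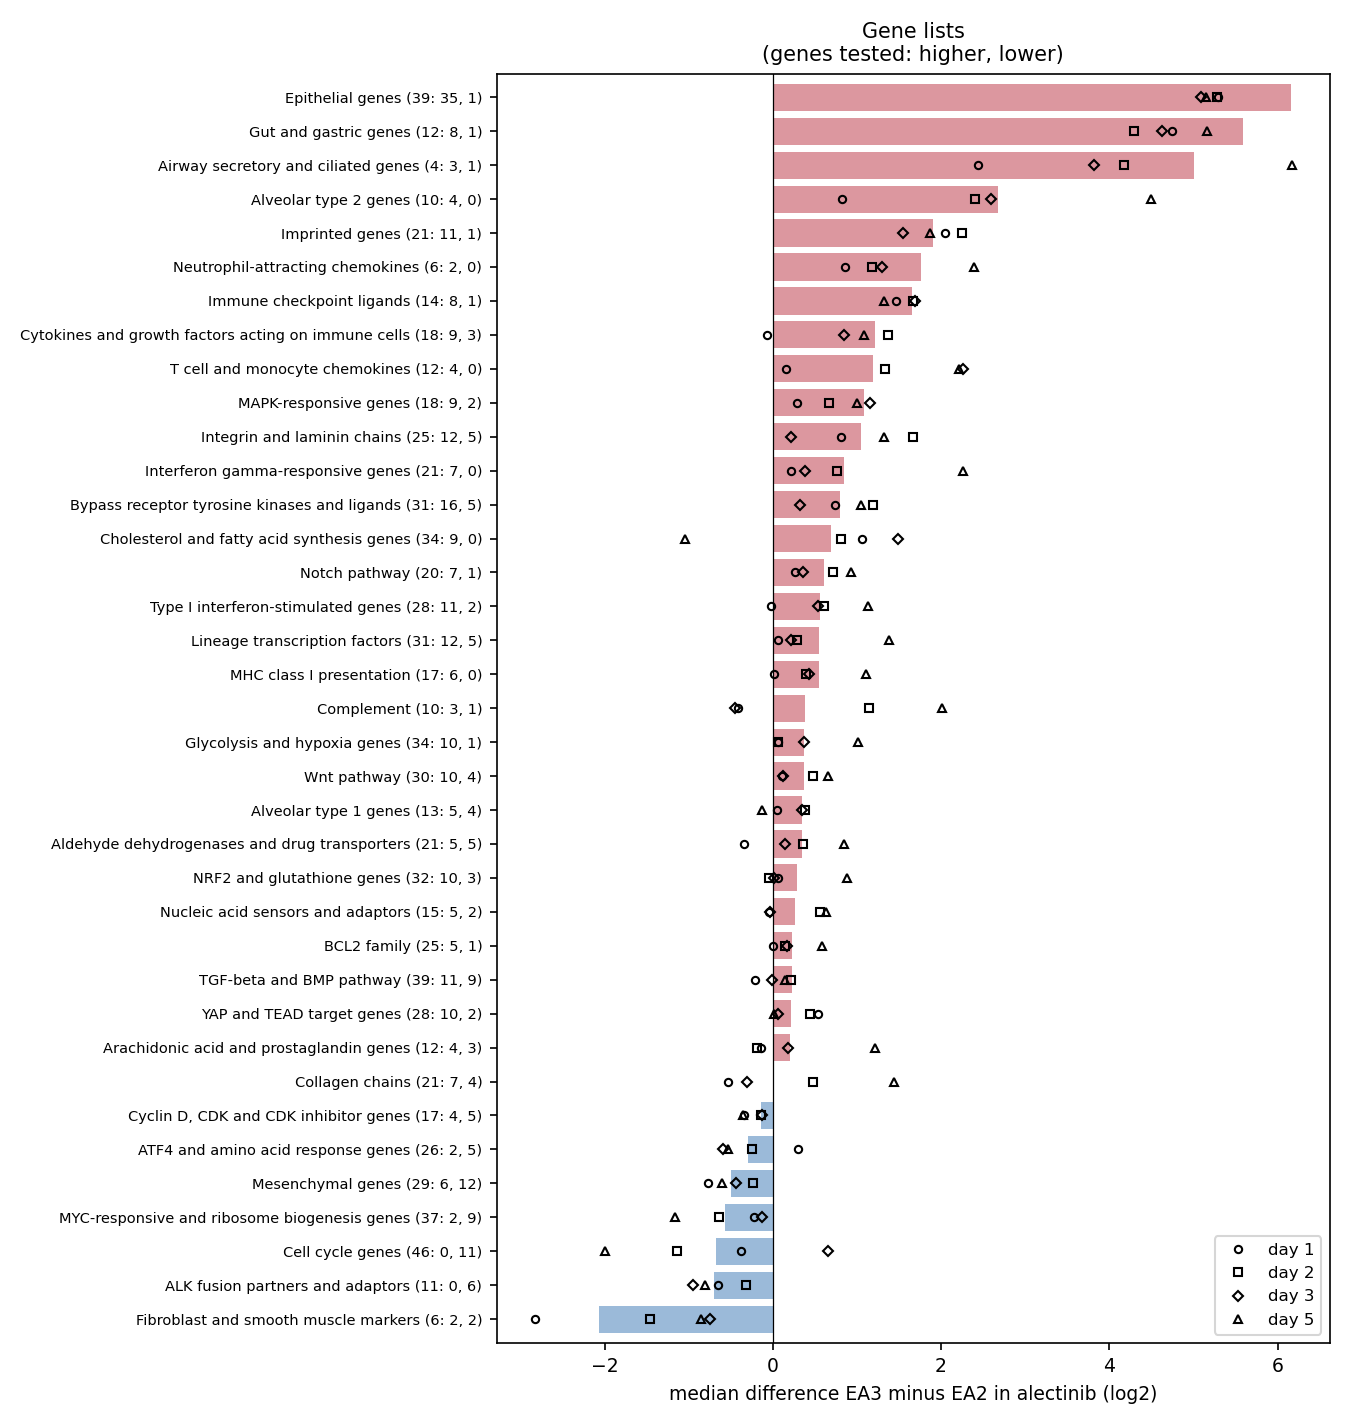
Median log2 difference EA3 minus EA2 of gene lists in alectinib: the bar is the median of the fitted differences, the 4 points are the medians of the differences on days 1, 2, 3 and 5, and the label gives the genes tested, higher and lower. Epithelial and gut lists lie far to the right on each day, and the cell cycle and cholesterol lists have daily points on both sides of 0.

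Genes of cell-matrix adhesion were more often higher than lower in EA3, and collagens were divided. Of 25 integrin and laminin chains tested, 12 were higher and 5 lower in EA3. Dropping day 1 gave 1 lower, day 2 gave 2 lower and day 3 gave 1 lower. Itgb4, the integrin chain of hemidesmosomes, had 1.13, 0.18, 0.115 and 0.346 CPM in EA2 and 161, 112, 85.6 and 40.8 CPM in EA3 (log2 difference 7.77, SE 0.38, adjusted p = 9.98e-05). Its ligand chain Lama3 had 0.516, 0.18, 0.575 and 0.116 CPM against 81.2, 56.4, 33 and 20.5 CPM (log2 difference 6.99, SE 0.36, adjusted p = 0.000108). Itgb6, an epithelial integrin chain that activates latent TGF-beta, had 2.68, 3.78, 1.04 and 2.08 CPM against 61.1, 50.1, 29.5 and 18 CPM (log2 difference 4.06, SE 0.33, adjusted p = 0.00051). For each of these the lowest EA3 value, on day 5, was above the highest EA2 value. Among 21 collagen chains, 7 were higher and 4 lower. Of the 7 higher, 3 passed the filter through EA3 alone and 1 of the 4 lower through EA2 alone, and of the 17 present in both lines 4 were higher and 3 lower. The basement membrane chain Col4a3 had 0.206, 0.18, 0.115 and 0.231 CPM in EA2 and 57, 82.1, 79.8 and 21.9 CPM in EA3 (log2 difference 8.17, SE 0.37, adjusted p = 8.05e-05), and its partner Col4a4 had 0, 0, 0.345 and 0 CPM against 42.2, 53.4, 52.7 and 17.7 CPM, a ratio of 455-fold with a counting interval of 155 to 2209 (adjusted p = 0.000267, at least 302-fold without day 3). The chains of type I collagen, which assemble into one fibril, went opposite ways. Col1a1 was at 3.61, 2.34, 4.14 and 16.1 CPM in EA2 and 79.9, 132, 149 and 183 CPM in EA3 (log2 difference 4.68, SE 0.39, adjusted p = 0.000652), and Col1a2 was at 74.6, 38.1, 29.6 and 86.3 CPM and 5.12, 4.83, 1.05 and 10.5 CPM (log2 difference -3.55, SE 0.32, adjusted p = 0.000743). The lines did not overlap for any of these 4 chains. Pxdn, the peroxidase that cross-links collagen IV (mm10 chr12:29937608-30017658, + strand), had 0, 0, 0.115 and 0 CPM in EA2 and 368, 399, 307 and 391 CPM in EA3, a ratio of 11871-fold with a counting interval of 2130.2 to 468900.0 (adjusted p = 4.73e-05, at least 3069.7-fold without day 3). The proteoglycan gene Vcan had 572, 272, 314 and 282 CPM in EA2 and 3.98, 4.83, 2.11 and 8.25 CPM in EA3 (log2 difference -6.24, SE 0.45, adjusted p = 0.000443).

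Transcription factors that set cell lineage were more often higher than lower in EA3. Of 31 tested, 12 were higher and 5 lower in EA3, a share of lower genes near the 14.2% of all genes. Of the 12 higher, 3 passed the filter through EA3 alone and 2 of the 5 lower through EA2 alone, and of the 26 present in both lines 9 were higher and 3 lower. Sox2, a factor of foregut and airway progenitors (mm10 chr3:34650405-34652461, + strand), had 54.3, 54.2, 41.2 and 47.1 CPM in EA2 and 0.0949, 0.225, 0.0957 and 0 CPM in EA3 (log2 difference -8.70, SE 0.39, adjusted p = 8.05e-05). Ehf, an ETS factor of epithelia, had 0.206, 0, 0.115 and 0 CPM against 93.7, 117, 38.3 and 225 CPM, a ratio of 1248-fold with a counting interval of 427 to 6054 (adjusted p = 0.000108, 2810.1-fold without day 1 and 649-fold without day 5). Both separated the lines on every day. Foxj1, which directs the making of motile cilia, was at 0.206, 0.54, 0.345 and 0.116 CPM in EA2 and 67.6, 82.4, 47.9 and 19.8 CPM in EA3 (log2 difference 7.50, SE 0.27, adjusted p = 4.83e-05). Hnf4a, a factor of gut and liver epithelium, was at 3.09, 0, 0.23 and 0.231 CPM and 91.1, 58, 17.3 and 56.3 CPM (log2 difference 6.30, SE 0.64, adjusted p = 0.00134).

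Genes of gut and stomach epithelium were a further list, most of which was too low to test. Of 12 tested (of 39 in the table), 8 were higher in EA3 and 1 was lower (Cdh17). The 27 others were too low to test, and a gene low in EA2 could be tested only through its EA3 level. Of the 8 higher, 4 passed the filter through EA3 alone, and of the 8 present in both lines 4 were higher and 1 lower. Ctse, the cathepsin of gastric mucosa, had 1.13, 0.72, 0.115 and 0.462 CPM in EA2 and 85.8, 78.7, 13.4 and 80.3 CPM in EA3 (log2 difference 6.75, SE 0.26, adjusted p = 6.13e-05), with its lowest EA3 value on day 3. Krt20, a keratin of intestinal and gastric surface cells, had 0.413, 0.18, 0.69 and 0.116 CPM against 7.4, 14.2, 22 and 26.2 CPM (log2 difference 5.52, SE 0.56, adjusted p = 0.00111). The mucin gene Muc1, which alveolar cells also use, had 1.55, 0.54, 0.69 and 0.462 CPM against 188, 175, 60.4 and 154 CPM (log2 difference 7.42, SE 0.34, adjusted p = 8.45e-05). The lines were apart for all 3.

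Alveolar genes were mixed. Of 10 alveolar type 2 genes tested (of 21 in the table), 4 were higher in EA3 and 0 were lower. Abca3, the lipid transporter of surfactant storage organelles, had 5.26, 4.32, 10.1 and 6.58 CPM in EA2 and 109, 131, 81.7 and 189 CPM in EA3 (log2 difference 4.30, SE 0.37, adjusted p = 0.000686). Cd36, a fatty acid carrier, had 0, 0, 0.921 and 1.5 CPM against 1.9, 4.16, 7.75 and 118 CPM (log2 difference 5.18, SE 0.73, adjusted p = 0.00397), and its EA3 level on day 5 stood far above the other days. Chil1, a chitinase-like secreted protein, had 0 counts in EA2 and 2.28, 9.33, 5.93 and 366 CPM in EA3, at least 975-fold higher (adjusted p = 0.00112, at least 45.1-fold without day 5), again with 1 day far above the rest. The lines did not overlap for these genes. Of 13 alveolar type 1 genes, 5 were higher and 4 lower. Setting aside day 2 gave 3 higher and 1 lower and day 3 gave 3 higher and 2 lower. Pdpn, the surface glycoprotein podoplanin, had 2.89, 4.5, 3.8 and 5.08 CPM in EA2 and 22.4, 26.4, 21.9 and 29.4 CPM in EA3 (log2 difference 2.67, SE 0.21, adjusted p = 0.000462). Cav1, the coat protein of caveolae, had 583, 588, 580.1 and 568 CPM in EA2 and 84.3, 62.1, 70.8 and 43.5 CPM in EA3 (log2 difference -3.16, SE 0.20, adjusted p = 0.000197). Of 4 airway genes tested (of 22 in the table, the others too low), 3 were higher in EA3 (Foxj1, Muc4 and Muc5b, the last with adjusted p = 0.0342, or 0.083 without day 2 and 0.0925 without day 3, and 0.0531 with no low-count filter) and 1 was lower (Aldh1a1, adjusted p = 0.0135, or 0.0502 without day 2, and 0.156 with no day block). Of the 3 higher, 2 passed the filter through EA3 alone, and of the 2 present in both lines 1 was higher and 1 lower. Taking out day 2 gave 0 lower. Neuroendocrine markers were few: Ncam1 was higher in EA3 (log2 difference 1.12, SE 0.20, adjusted p = 0.00827), Insm1 and Uchl1 did not pass the test, and Calca and Neurod1 were at 0 in the alectinib libraries of both lines.

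Both genes joined by the fusion, and some of the adaptors that carry its signal, were lower in EA3. Alk (mm10 chr17:71868972-72604627, - strand) had 114, 105, 135 and 103 CPM in EA2 and 51.2, 57.5, 53.5 and 53 CPM in EA3 (log2 difference -1.04, SE 0.14, adjusted p = 0.00272). Eml4 (chr17:83350931-83480361, + strand) had 114, 91.2, 129 and 118 CPM and 37.2, 34, 35.7 and 35.9 CPM (log2 difference -1.62, SE 0.13, adjusted p = 0.000541). Neither gene overlapped between the lines, and counts over a gene do not tell fusion reads from reads of the normal copy. Of 11 genes of fusion partners and adaptors, 0 were higher and 6 lower, with a median log2 difference of -0.70. Excluding day 5 gave 1 higher. Irs2, an adaptor of the insulin receptor family, had 159, 166, 297 and 183 CPM in EA2 and 45.2, 29.9, 45 and 39 CPM in EA3 (log2 difference -2.27, SE 0.19, adjusted p = 0.000541), and Sos1, the exchange factor that loads RAS, had 155, 149, 209 and 218 CPM and 99.1, 98.3, 101 and 82.1 CPM (log2 difference -0.89, SE 0.17, adjusted p = 0.00979). In DMSO, Alk had 111, 105, 143 and 136 CPM in EA2 and 89.8, 82.1, 103 and 71.5 CPM in EA3 and did not pass the test (log2 difference -0.50, adjusted p = 0.0568, or 0.0252 to 0.036 with DESeq2 and library size alone). The Alk differences under drug and solvent were not shown to differ (log2 -0.53, adjusted p = 0.178).

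Genes of cell cycle arrest and of cell death were read next. Cdkn1a, the cell cycle inhibitor p21, had 6.71, 8.46, 8.75 and 7.05 CPM in EA2 and 18.5, 19, 13.5 and 32.1 CPM in EA3 (log2 difference 1.40, SE 0.30, adjusted p = 0.0144, or 0.0514 without day 1 and 0.054 without day 2). Cdkn2a, the locus of p16 and p19, had 706, 710.4, 600.0 and 539.9 CPM in EA2 and 331, 369, 323 and 281 CPM in EA3 (log2 difference -0.93, SE 0.13, adjusted p = 0.0036). Among 25 genes of the BCL2 family, 5 were higher and 1 lower, a share of higher genes near the 17.3% and of lower genes under the 14.2% of all genes. Removing day 5 gave 8 higher and 2 lower. Of the 5 higher, 2 passed the filter through EA3 alone, and of the 23 present in both lines 3 were higher and 1 lower. The survival gene Bcl2l1 had 47.5, 60.6, 43.7 and 39.6 CPM in EA2 and 118, 131, 131 and 132 CPM in EA3 (log2 difference 1.47, SE 0.16, adjusted p = 0.00134), and the death effector gene Bid had 23.6, 29.5, 22.2 and 27.7 CPM and 68.5, 84.3, 69.3 and 81.7 CPM (log2 difference 1.60, SE 0.13, adjusted p = 0.000525).

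Genes that respond to the MAPK pathway, feedback regulators and other targets together, were more often higher than lower in EA3 under the drug. Of 18 tested, 9 were higher and 2 lower (Myc and Ccnd1, for Ccnd1 adjusted p = 0.0196, or 0.0549 without day 1 and 0.116 without day 2), with daily medians from 0.28 to 1.16. Withholding day 1 gave 1 lower, day 2 gave 5 higher and 0 lower and day 3 gave 4 higher. Dusp6, the ERK phosphatase, had 16.1, 11.3, 8.29 and 6.81 CPM in EA2 and 18.8, 23.3, 49.9 and 22 CPM in EA3 (log2 difference 1.41, SE 0.40, adjusted p = 0.037, or 0.0898 without day 2, 0.0828 without day 3 and 0.107 without day 5). Dusp4 had 13.7, 9.18, 29.1 and 10.9 CPM against 50.6, 62.4, 152 and 33.3 CPM (log2 difference 2.19, SE 0.21, adjusted p = 0.000958). Etv4, an ETS factor downstream of ERK, had 1.86, 0.36, 1.61 and 1.16 CPM against 5.12, 6.3, 15.7 and 1.87 CPM (log2 difference 2.31, SE 0.62, adjusted p = 0.0316, or 0.0539 without day 1, 0.106 without day 2 and 0.119 without day 3). The lines did not overlap for these 3, for Etv4 by a narrow margin on day 5, and each was highest in EA3 on day 3. Etv5 had 2.58, 0.54, 1.15 and 0.693 CPM and 1.42, 2.25, 7.75 and 5.61 CPM and did not pass the test (log2 difference 1.79, adjusted p = 0.12, or 0.0175 without day 1), and neither did Fosl1, with 11.7, 7.74, 4.95 and 3.23 CPM and 2.47, 1.35, 6.32 and 4.18 CPM (log2 difference -0.94, adjusted p = 0.319). The strand setting of the counting is not stated, and 57.2% of Fosl1 lies opposite another gene. In DMSO the same phosphatase and factor were abundant in both lines: Dusp6 had 267, 326, 417 and 338 CPM in EA2 and 197, 329, 263 and 274 CPM in EA3, and Etv4 had 115, 118, 139 and 122 CPM and 101, 124, 98.4 and 75.8 CPM. Neither passed the test there (log2 difference -0.34, adjusted p = 0.168 for Dusp6, and log2 difference -0.32, adjusted p = 0.21 for Etv4). The test of alectinib against DMSO differences gave log2 2.57, SE 0.59, adjusted p = 0.0479, or 0.0898 without day 1, 0.122 without day 2, 0.139 without day 3 and 0.0804 without day 5 for Etv4 and log2 1.76, SE 0.42, adjusted p = 0.0552, or 0.0412 without day 1, and 6.41e-08 to 0.049 with DESeq2, at least 10 counts in every library, library size alone, no low-count filter and no day block for Dusp6. In DMSO 3 of 20 genes of the list were higher and 2 lower.

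Receptor tyrosine kinases and their ligands were more often higher than lower in EA3. Of 31 tested, 16 were higher and 5 lower in EA3, a share of lower genes near the 14.2% of all genes. Of the 16 higher, 5 passed the filter through EA3 alone, and of the 26 present in both lines 11 were higher and 5 lower. Egfr, the EGF receptor, had 0.928, 1.8, 2.53 and 3.23 CPM in EA2 and 59.5, 57.8, 72.6 and 42.1 CPM in EA3 (log2 difference 4.84, SE 0.37, adjusted p = 0.000441). Erbb3, its kinase-poor partner, had 0.928, 0.18, 0.921 and 0.346 CPM against 61.4, 64.2, 28.7 and 32.1 CPM (log2 difference 6.17, SE 0.44, adjusted p = 0.000342). Pdgfb, a ligand of PDGF receptors, had 19.4, 14.9, 18.3 and 14.3 CPM against 186, 176, 168 and 70 CPM (log2 difference 3.11, SE 0.23, adjusted p = 0.000384). Fgfr1 ran the other way, with 136, 129.7, 282 and 142 CPM in EA2 and 17.1, 20.7, 35.8 and 27.4 CPM in EA3 (log2 difference -2.71, SE 0.17, adjusted p = 0.000197). For the 4 genes the lines did not overlap in alectinib, and their differences in DMSO had the same sign (log2 difference 5.47, adjusted p = 1.72e-05 for Egfr and log2 difference -2.70, adjusted p = 0.000151 for Fgfr1).

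A part of the cell cycle genes was lower in EA3. Of 46 cell cycle genes, all tested, 0 were higher and 11 lower in EA3 and 35 did not pass the test, with a median log2 difference of -0.67. The days did not line up, however: the medians were -0.37, -1.14, 0.66 and -1.99. Leaving out day 1 gave 7 lower, day 2 gave 3 lower, day 3 gave 20 lower and day 5 gave 7 lower. Cdca7 had 92.2, 108, 87.1 and 107 CPM in EA2 and 30.3, 27.1, 28.3 and 22.6 CPM in EA3 (log2 difference -1.83, SE 0.17, adjusted p = 0.000704). The origin licensing factor Cdt1 had 73.8, 88, 83.8 and 93.7 CPM against 32.4, 25.7, 32.2 and 20.8 CPM (log2 difference -1.59, SE 0.20, adjusted p = 0.00214). Mcm4, a subunit of the replicative helicase, had 201, 213, 99.3 and 229 CPM against 102, 82.2, 65 and 61.5 CPM (log2 difference -1.18, SE 0.22, adjusted p = 0.00945, or 0.052 without day 2), and its EA2 level on day 3 was below its EA3 level on day 1. Cdca7 and Cdt1 did not overlap between the lines. Among 17 cyclins, kinases and inhibitors, 4 were higher and 5 lower. Omitting day 2 gave 3 lower. Ccne2 had 47.6, 48.6, 16 and 55.7 CPM in EA2 and 11.8, 10.8, 6.7 and 8.25 CPM in EA3 (log2 difference -2.02, SE 0.26, adjusted p = 0.00255), whereas Ccnd2 had 92.9, 77.9, 118 and 147 CPM and 276, 373, 487 and 319 CPM (log2 difference 1.78, SE 0.21, adjusted p = 0.00182). Ribosome biogenesis and MYC-responsive genes had 2 higher and 9 lower of 37. Dropping day 1 gave 1 higher and day 2 gave 1 higher and 2 lower. Myc had 299, 306, 437 and 253 CPM in EA2 and 192, 163, 263 and 115 CPM in EA3 (log2 difference -0.82, SE 0.14, adjusted p = 0.00723, or 0.052 without day 2), and the nucleolar gene Wdr43 had 387, 483, 389 and 525 CPM and 123, 106, 126 and 79 CPM (log2 difference -2.01, SE 0.22, adjusted p = 0.00146).

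Secreted signals to immune cells differed gene by gene. Of 12 T cell and monocyte chemokines tested (of 23 in the table), 4 were higher in EA3 and 0 were lower. Of the 4 higher, 2 passed the filter through EA3 alone, and of the 10 present in both lines 2 were higher and 0 lower. Setting aside day 3 gave 1 lower and day 5 gave 1 lower. Cxcl12, the ligand of CXCR4, had 0 counts in EA2 and 20.6, 31.1, 7.75 and 163 CPM in EA3, at least 573-fold higher (adjusted p = 0.00106, at least 154-fold without day 5). Ccl20 had 0, 0.18, 0.23 and 0.116 CPM in EA2 and 14.9, 34.6, 32.4 and 50.4 CPM in EA3 (log2 difference 7.92, SE 0.41, adjusted p = 0.000108). Cxcl16 had 7.12, 4.32, 1.38 and 2.19 CPM against 139.8, 169.6, 126 and 137 CPM (log2 difference 5.44, SE 0.39, adjusted p = 0.000424). Cxcl10, an interferon-induced attractant of T cells, had 1.65, 0.36, 0.46 and 1.04 CPM in EA2 and 7.69, 8.1, 6.41 and 7.04 CPM in EA3 (log2 difference 3.18, SE 0.48, adjusted p = 0.00445). The lines did not overlap for these 4, and the day 5 value of Cxcl12 in EA3 was far above the other days. Cxcl9, which acts on the same receptor as Cxcl10, was at 0 counts in all 8 libraries. The monocyte attractants overlapped between the lines: Ccl2 had 32.5, 24.6, 17.5 and 15.6 CPM in EA2 and 15.5, 35.4, 85.5 and 39.1 CPM in EA3 (log2 difference 0.82, adjusted p = 0.291, or 0.0432 without day 1). Neither Ccl5, with 3.61, 2.7, 7.02 and 0.462 CPM and 0.759, 1.69, 3.92 and 4.84 CPM (log2 difference -0.29, adjusted p = 0.837), nor Ccl7, with 9.18, 4.68, 7.02 and 6.01 CPM and 1.33, 5.28, 17.3 and 12.1 CPM (log2 difference 0.12, adjusted p = 0.912), passed the test. The 95% interval of the log2 difference ran from -0.49 to 2.14 for Ccl2 and from -2.46 to 1.89 for Ccl5.

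Neutrophil attractants gave 2 higher and 0 lower of 6 tested. Taking out day 5 gave 1 lower. Cxcl2 had 0.309, 0, 0.46 and 0.116 CPM in EA2 and 3.98, 6.52, 5.26 and 16.2 CPM in EA3 (log2 difference 4.88, SE 0.78, adjusted p = 0.00531). Cxcl3 had 7.32, 5.94, 5.06 and 5.2 CPM against 34.5, 33.4, 52.7 and 61.2 CPM (log2 difference 2.95, SE 0.29, adjusted p = 0.000936). The lines were apart for both. For Cxcl1 and Cxcl5 they overlapped: Cxcl1 had 194, 191, 306 and 125 CPM in EA2 and 69.5, 114, 182 and 258 CPM in EA3 (log2 difference -0.47, adjusted p = 0.424, or 0.0205 without day 5). Cxcl5 had 1314, 1058, 1068 and 589 CPM and 566, 793, 847 and 1424 CPM (log2 difference -0.16, adjusted p = 0.796). Of 18 cytokines and growth factors tested, 9 were higher and 3 lower. Of the 9 higher, 3 passed the filter through EA3 alone, and of the 15 present in both lines 6 were higher and 3 lower. Excluding day 1 gave 1 lower, day 2 gave 4 higher and 1 lower and day 3 gave 5 higher and 1 lower. Il1rn, the interleukin 1 receptor antagonist, had 0, 0.54, 0.115 and 0.693 CPM in EA2 and 20.4, 21.8, 10.9 and 31.5 CPM in EA3 (log2 difference 6.16, SE 0.59, adjusted p = 0.000862). Il23a had 0.309, 0, 0.115 and 0.231 CPM against 22.1, 19.3, 19.1 and 5.17 CPM (log2 difference 6.36, SE 0.62, adjusted p = 0.000915), and Il34, a ligand of the macrophage receptor CSF1R, ran the other way at 19.3, 20.7, 15.9 and 13.5 CPM against 3.8, 4.05, 4.4 and 3.3 CPM (log2 difference -2.11, SE 0.24, adjusted p = 0.00159). Tgfb2 had 20.3, 36.3, 59.8 and 62.4 CPM in EA2 and 84.9, 99.7, 81.4 and 111 CPM in EA3 (log2 difference 1.23, SE 0.27, adjusted p = 0.0167, or 0.0773 without day 2). None of these 4 overlapped between the lines.

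Interferon and antigen presentation genes were more often higher than lower in EA3. Of 28 type I interferon-stimulated genes tested, 11 were higher and 2 lower, and the daily medians went from -0.02 on day 1 to 1.13 on day 5. Of the 11 higher, 5 passed the filter through EA3 alone, and of the 23 present in both lines 6 were higher and 2 lower. Removing day 1 gave 1 lower, day 2 gave 1 lower and day 3 gave 1 lower. Samd9l had 4.95, 2.52, 1.38 and 3.35 CPM in EA2 and 58.8, 89.5, 54.2 and 213 CPM in EA3 (log2 difference 4.99, SE 0.43, adjusted p = 0.000747). Ifih1, the cytoplasmic sensor MDA5 of double-stranded RNA, had 0.103, 0, 0 and 0.231 CPM against 9.11, 10.5, 13.7 and 17.4 CPM, a ratio of 137-fold with a counting interval of 46.5 to 665 (adjusted p = 0.000671, 266-fold without day 5). Both were higher in every EA3 library. Interferon gamma-responsive genes had 7 higher and 0 lower of 21, among them Icam1, with 15.3, 19.4, 16.8 and 11.6 CPM in EA2 and 81.8, 109, 38.9 and 196 CPM in EA3 (log2 difference 2.57, SE 0.46, adjusted p = 0.00879, or 0.0505 with no low-count filter). Withholding day 5 gave 2 lower. MHC class I presentation genes had 6 higher and 0 lower of 17. Leaving out day 2 gave 3 higher. H2-K1 had 20.4, 14.6, 29.8 and 7.62 CPM in EA2 and 111, 138, 143 and 175 CPM in EA3 (log2 difference 3.11, SE 0.40, adjusted p = 0.0031), and H2-D1 had 67, 52.2, 88.7 and 49.8 CPM and 146, 177, 149 and 306 CPM (log2 difference 1.59, SE 0.32, adjusted p = 0.0125, or 0.053 without day 2). Class I heavy chains resemble one another closely, so a read shared by several of them may be lost or assigned to the wrong copy. Of the class II pathway 2 genes could be tested, and H2-DMa was lower in EA3 (log2 difference -1.49, SE 0.40, adjusted p = 0.0315, or 0.0986 without day 1, 0.0983 without day 2, 0.096 without day 3 and 0.107 without day 5, and 0.117 with no low-count filter), so that 0 were lower whichever day was left out. Nucleic acid sensors had 5 higher and 2 lower of 15. Omitting day 1 gave 1 lower and day 2 gave 3 higher and 0 lower. Aim2, the sensor of cytoplasmic DNA, had 77, 78.8, 72.3 and 59.7 CPM in EA2 and 13.2, 20.4, 38.1 and 27.8 CPM in EA3 (log2 difference -1.58, SE 0.30, adjusted p = 0.00953, or 0.0506 without day 2).

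Several ligands of immune checkpoint receptors were higher in EA3. Of 14 tested, 8 were higher and 1 lower (Lgals3), with daily medians between 1.32 and 1.69. Of the 8 higher, 5 passed the filter through EA3 alone, and of the 9 present in both lines 3 were higher and 1 lower. Nectin3 had 0 counts in EA2 and 73, 82.3, 27.6 and 105 CPM in EA3, at least 765-fold higher (adjusted p = 0.000743, at least 478-fold without day 5). Nectin2, a ligand of TIGIT and CD226, had 26.8, 42.8, 41.3 and 27.6 CPM in EA2 and 139, 180.3, 172 and 211 CPM in EA3 (log2 difference 2.39, SE 0.20, adjusted p = 0.00054). Cd276, the B7 family member B7-H3, had 52.3, 45, 39.4 and 32.6 CPM against 109.6, 108, 99.7 and 87.2 CPM (log2 difference 1.31, SE 0.13, adjusted p = 0.00109). The lines were apart for all 3. In DMSO Cd276 was nearly level (104, 98.6, 114 and 117 CPM in EA2 and 107, 81.1, 120.2 and 94 CPM in EA3, log2 difference -0.11, adjusted p = 0.627), and the alectinib difference exceeded it (log2 1.43, SE 0.24, adjusted p = 0.0162, or 0.0655 without day 2, 0.103 without day 3 and 0.0672 without day 5). Cd274, which encodes PD-L1, had 1.86, 2.34, 2.19 and 1.5 CPM and 2.47, 4.16, 4.78 and 2.75 CPM and did not pass the test (log2 difference 0.85, adjusted p = 0.122). Of 10 complement genes, 3 were higher and 1 lower (Masp1, adjusted p = 0.011, or 0.0583 without day 2, and 0.0707 with no day block). Dropping day 2 gave 1 higher and 0 lower and day 5 gave 2 lower. Clu, the complement-binding chaperone clusterin, had 252, 194, 192 and 101 CPM in EA2 and 3428, 5286, 3538 and 6621 CPM in EA3 (log2 difference 4.71, SE 0.43, adjusted p = 0.00087).

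Developmental signalling lists were mixed. The Notch list had 7 higher and 1 lower of 20. Notch1 had 9.8, 5.4, 10.2 and 6.24 CPM in EA2 and 143, 122, 89.6 and 123 CPM in EA3 (log2 difference 3.96, SE 0.26, adjusted p = 0.000255), and its ligand Jag2 had 8.87, 3.78, 15.4 and 4.04 CPM and 52.5, 51.5, 90.6 and 68.3 CPM (log2 difference 3.22, SE 0.32, adjusted p = 0.00104). Receptor and ligand were both apart between the lines. The Wnt list had 10 higher and 4 lower of 30. Of the 10 higher, 3 passed the filter through EA3 alone, and of the 27 present in both lines 7 were higher and 4 lower. Setting aside day 2 gave 6 higher. The ligand Wnt16 had 0, 0, 0 and 0.346 CPM in EA2 and 16, 31, 37.2 and 53 CPM in EA3, a ratio of 367-fold with a counting interval of 125 to 1782 (adjusted p = 0.000267, at least 223-fold without day 5). The receptor Ror2 had 41.8, 37.6, 36.7 and 42.9 CPM in EA2 and 10.7, 11.4, 8.13 and 10.3 CPM in EA3 (log2 difference -1.94, SE 0.16, adjusted p = 0.000566). The TGF-beta and BMP list had 11 higher and 9 lower of 39. Taking out day 2 gave 5 higher and 3 lower. Fst, the activin-binding follistatin, had 16.3, 40.7, 85.4 and 69.9 CPM in EA2 and 1.9, 1.24, 1.91 and 1.98 CPM in EA3 (log2 difference -4.66, SE 0.44, adjusted p = 0.000951), and its relative Fstl1 had 0.619, 0.9, 1.15 and 2.31 CPM and 6.93, 19.5, 33.8 and 134 CPM (log2 difference 4.89, SE 0.40, adjusted p = 0.000541). YAP and TEAD targets had 10 higher and 2 lower of 28. Excluding day 1 gave 6 higher, day 2 gave 5 higher and 0 lower, day 3 gave 1 lower and day 5 gave 1 lower.

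Imprinted genes differed mainly where EA2 was near silent. Of 21 tested (of 39 in the table), 11 were higher in EA3 and 1 was lower (Inpp5f, adjusted p = 0.0492, or 0.153 without day 1, 0.121 without day 2, 0.134 without day 3 and 0.0519 without day 5, and 0.0521 to 0.0661 with DESeq2 size factors, sex-linked and unplaced genes kept, at least 10 counts in every library, library size alone and no low-count filter). Of the 11 higher, 9 passed the filter through EA3 alone, and of the 12 present in both lines 2 were higher and 1 lower. Whichever day was left out, 0 genes of the list were lower. Peg3, a zinc finger gene expressed from the paternal copy, had 0 counts in EA2 and 51.9, 60, 139 and 21.8 CPM in EA3, at least 761-fold higher (adjusted p = 0.000791, at least 357-fold without day 3). Peg10 had 0 counts in EA2 and 8.16, 7.2, 4.98 and 141 CPM in EA3, at least 412-fold higher (adjusted p = 0.00159, at least 53.9-fold without day 5). Sgce, its paternally expressed neighbour, had 0, 0.18, 0 and 0.231 CPM against 3.13, 6.86, 12.1 and 20.7 CPM, a ratio of 114-fold with a counting interval of 38.7 to 554 (adjusted p = 0.00107, 176-fold without day 5). Peg10 and Sgce lie side by side, and both were highest in EA3 on day 5. Rian, a maternally expressed noncoding RNA, had 0, 0.18, 0 and 0 CPM in EA2 and 7.97, 7.31, 7.66 and 9.02 CPM in EA3, a ratio of 260.1-fold with a counting interval of 46.4 to 10308 (adjusted p = 0.00132, at least 73.7-fold without day 2).

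Metabolic lists were mixed. Cholesterol and fatty acid genes had 9 higher and 0 lower of 34, but the daily medians were 1.06, 0.81, 1.49 and -1.05, opposite in sign on day 5. Removing day 1 gave 3 higher, day 2 gave 2 higher and day 5 gave 28 higher. Scd1, the desaturase, had 198, 125, 236 and 235 CPM in EA2 and 609, 498, 562 and 299 CPM in EA3 (log2 difference 1.34, SE 0.27, adjusted p = 0.0114, or 0.0526 without day 2). It was lowest in EA3 on day 5. Glycolysis and hypoxia genes had 10 higher and 1 lower of 34, against 22 and 0 of 34 in DMSO. Withholding day 1 gave 0 lower, day 2 gave 5 higher and 0 lower, day 3 gave 0 lower and day 5 gave 3 lower. Hk2, hexokinase 2, had 35.8, 26.6, 59.8 and 37.7 CPM in EA2 and 161, 155, 253 and 179.6 CPM in EA3 (log2 difference 2.30, SE 0.14, adjusted p = 0.000185). Genes of the NRF2 and glutathione list had 10 higher and 3 lower of 32. Leaving out day 2 gave 6 higher and 1 lower and day 3 gave 1 lower. Nqo1, the quinone reductase that is a standard NRF2 target, had 11, 15.8, 10 and 6.7 CPM in EA2 and 0.38, 0.337, 0.574 and 0.11 CPM in EA3 (log2 difference -4.89, SE 0.45, adjusted p = 0.000743), while another target, Osgin1, had 5.98, 7.02, 8.06 and 6.35 CPM and 107, 132, 571 and 105 CPM (log2 difference 4.69, SE 0.42, adjusted p = 0.000849). Members of the one list thus lay on opposite sides on all 4 days. In a list of 21 aldehyde dehydrogenases and drug efflux pumps tested, 5 were higher and 5 lower. Of the pumps, Abcc3, at 9.28, 3.24, 4.95 and 2.19 CPM in EA2 and 178, 165, 113 and 273 CPM in EA3 (log2 difference 5.27, SE 0.50, adjusted p = 0.00104), and Abcg2, at 0.619, 1.62, 1.04 and 2.77 CPM and 11.6, 15.3, 17.3 and 9.68 CPM (log2 difference 3.30, SE 0.49, adjusted p = 0.00401), were higher in EA3 and so was Abcb1a (log2 difference 1.44, adjusted p = 0.0266, or 0.0846 without day 1, 0.0841 without day 2 and 0.0741 without day 5), Abcc1 was lower (log2 difference -0.82, adjusted p = 0.0216, or 0.0785 without day 1, 0.074 without day 2 and 0.065 without day 3), and Abcb1b, Abcc4 and Abcc5 did not pass the test (log2 difference 0.34, adjusted p = 0.15, log2 difference 0.07, adjusted p = 0.862 and log2 difference 0.42, adjusted p = 0.114, or 0.0457 without day 5). Omitting day 1 gave 3 lower, day 2 gave 3 higher and 1 lower and day 3 gave 3 lower. ATF4 and amino acid response genes had 2 higher and 5 lower of 26 in alectinib, beside 17.3% and 14.2% of all genes, and 7 and 0 of 26 in DMSO. Dropping day 2 gave 1 lower and day 3 gave 2 lower. The prostaglandin list had 4 higher and 3 lower of 12. Setting aside day 2 gave 1 lower, day 3 gave 1 lower and day 5 gave 1 lower. Its cyclooxygenases were split, Ptgs1 at 2.37, 1.98, 3.45 and 0.924 CPM in EA2 and 54.4, 67.1, 29.7 and 136 CPM in EA3 (log2 difference 4.86, SE 0.64, adjusted p = 0.00315) and Ptgs2 at 551, 946, 1033 and 766 CPM and 231, 207, 294 and 72.1 CPM (log2 difference -2.12, SE 0.36, adjusted p = 0.00693).

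Among protein-coding genes with an average log2 CPM of 4 or more, in the lists or not, the 12 furthest to each side by fitted difference were, higher in EA3, Epcam, Pxdn, Chil1, Nectin3, Cldn4, Peg3, Cxcl12, Isoc1, Peg10, Adam19, St14 and Myh14, and, lower in EA3, Nlrp2, Sox2, Galnt13, Arsj, Mtus2, Tm4sf1, Kcnu1, Zfp979, Vcan, Cldn6, Scrn1 and Eno1b. Adam19, a membrane metalloprotease, had 0 counts in EA2 and 21.3, 27.8, 49.6 and 27.2 CPM in EA3, at least 345-fold higher (adjusted p = 0.00144, at least 201-fold without day 3). Tm4sf1, a tetraspanin-like surface protein, had 664, 618, 340.2 and 391 CPM in EA2 and 4.74, 4.05, 8.61 and 2.86 CPM in EA3 (log2 difference -6.63, SE 0.43, adjusted p = 0.000293). Galnt13, a glycosyltransferase that starts mucin-type sugar chains, had 36.1, 36.7, 42.9 and 32.8 CPM against 0.0949, 0, 0 and 0.33 CPM (log2 difference -8.29, SE 0.62, adjusted p = 0.000412). These 3 genes kept the lines apart on every day. Nlrp2 had 8.87, 19.6, 99 and 7.62 CPM in EA2, highest on day 3, and 0, 0, 0.191 and 0 CPM in EA3, a ratio of 670.0-fold with a counting interval of 185 to 5539.6 (adjusted p = 8.45e-05, at least 104-fold without day 3). Eno1b is a near copy of Eno1, so its value (log2 difference -5.62, SE 0.82, adjusted p = 0.0045, or 0.0713 with no low-count filter) may hold reads of that gene.

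Most genes that differed between the lines under the drug differed with the same sign in DMSO. Of 3845 genes called in alectinib 3565 were tested in DMSO, 2085 were called there in the same direction, 16 in the opposite direction, and 3299 had the same sign. The test of the alectinib difference against the DMSO difference, over 13226 genes, called 211 genes with a higher value in alectinib (1.60%) and 171 with a lower one (1.29%). With library size alone the split was 339 and 105, and leaving out day 2, day 3 or day 5 brought the 382 calls down to 83, 50 and 103. Of the 382 genes, the difference was larger in size under the drug for 133, smaller for 64 and of another sign for 185.

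**Figure D4:**
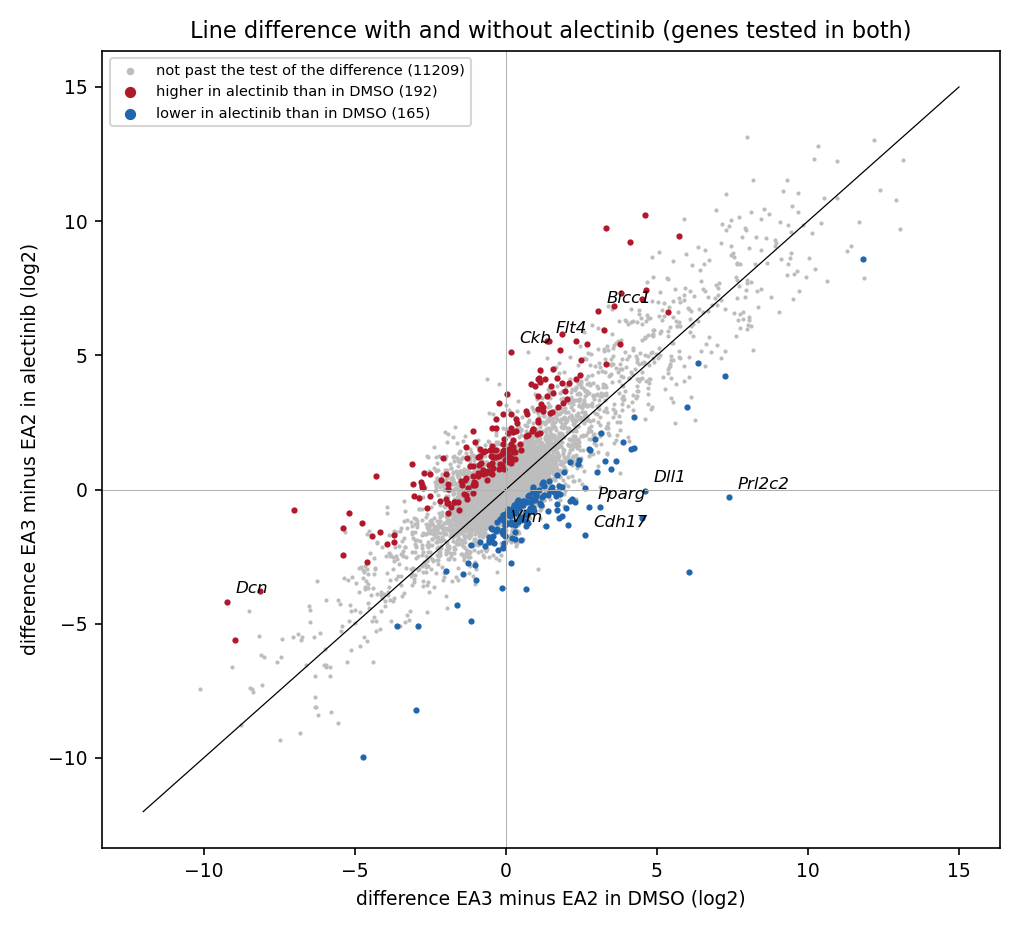
Fitted log2 difference EA3 minus EA2 of each gene tested in both treatments: DMSO on the x axis, alectinib on the y axis, with the line of equal values and genes past the test of the difference between treatments coloured. Most genes lie near the line, and Prl2c2, Dll1 and Cdh17 lie far to the right of 0 in DMSO and near or under 0 in alectinib.

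Among genes whose line difference was smaller or turned under the drug, Dll1 and Prl2c2 had their highest levels in untreated EA3. Dll1, a Notch ligand, had 3.08, 4.54, 10.3 and 5.05 CPM in EA2 and 59, 116, 200.0 and 188 CPM in EA3 in DMSO, and 5.67, 7.38, 10.4 and 3.81 CPM and 5.12, 4.83, 7.46 and 7.37 CPM in alectinib (difference between treatments log2 -4.63, SE 0.37, adjusted p = 0.000393). About 20.5% of the gene lies opposite another gene, and the strand setting of the counting is not stated. Cdh17, the cadherin of intestinal epithelium, had 19.1, 23.3, 14.8 and 15.2 CPM and 124, 112, 128 and 81.2 CPM in DMSO, and 40.2, 38.9, 31.1 and 38.6 CPM and 19.5, 8.55, 13.1 and 6.38 CPM in alectinib (log2 -4.34, SE 0.27, adjusted p = 0.000131). It was thus higher in EA3 without the drug (log2 difference 2.63, adjusted p = 3.5e-05) and lower with it (log2 difference -1.71, adjusted p = 0.00755). Prl2c2, a member of the prolactin family, had 1.03, 1.36, 2.27 and 1.13 CPM and 115, 182, 389.8 and 319.8 CPM in DMSO and 22.1, 16.9, 19.9 and 13.9 CPM and 35, 13.4, 12.6 and 6.82 CPM in alectinib (log2 -7.63, SE 0.84, adjusted p = 0.00296, or 0.0517 without day 3). Its near copy Prl2c3 followed (log2 -8.95, SE 1.21, adjusted p = 0.0101, or 0.0822 without day 3 and 0.0515 without day 5), and the copies may share reads. Pparg, the nuclear receptor of lipid storage, had 12, 12.1, 23.5 and 16.9 CPM and 69.5, 92.7, 107 and 175 CPM in DMSO and 52.8, 90.3, 122 and 90.9 CPM and 46.3, 49, 42.7 and 81.7 CPM in alectinib (log2 -3.40, SE 0.23, adjusted p = 0.000158). Its target Angptl4 gave log2 -3.34, SE 0.33, adjusted p = 0.00133, or 0.0529 with no day block, and the collagen chain Col6a2 gave log2 -3.67, SE 0.42, adjusted p = 0.00265, or 0.245 with no day block.

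The opposite pattern, a line difference that was larger or higher under the drug, was seen for Bicc1, an RNA-binding protein of tubular epithelia. It had 5.6, 3.79, 6.51 and 7.49 CPM in EA2 and 44.4, 32.8, 72.1 and 46.7 CPM in EA3 in DMSO, and 5.26, 1.98, 2.07 and 4.39 CPM and 204, 308, 398 and 443 CPM in alectinib (log2 3.63, SE 0.36, adjusted p = 0.00133). Flt4, the receptor VEGFR3, had 13.6, 12.3, 16 and 16 CPM and 28.5, 23.4, 55.3 and 48.9 CPM in DMSO and 1.34, 0.9, 2.19 and 3 CPM and 79.8, 100.2, 96.3 and 63.5 CPM in alectinib (log2 4.21, SE 0.42, adjusted p = 0.00133). Ckb, brain creatine kinase, overlapped between the lines in DMSO (27.5, 31.2, 41.9 and 44.7 CPM and 21.2, 63.9, 51.1 and 38.3 CPM) and not in alectinib (1.86, 0.9, 0.46 and 1.16 CPM and 30.6, 36.4, 56.5 and 31.7 CPM, log2 4.96, SE 0.47, adjusted p = 0.00133). On each day, Bicc1 and Flt4 were lower in EA2 and higher in EA3 in alectinib than in DMSO, while Ckb was lower in EA2 on each day and higher or lower in EA3 by day. Ccdc88c (log2 3.87, SE 0.70, adjusted p = 0.0219, or 0.0908 without day 2 and 0.11 without day 5), Padi4 (log2 5.24, SE 0.86, adjusted p = 0.015, or 0.0602 without day 2 and 0.117 without day 3), Ifi202b (log2 4.46, SE 0.53, adjusted p = 0.00296), Rgs16 (log2 3.83, SE 0.83, adjusted p = 0.044, or 0.0554 without day 1, 0.0878 without day 2 and 0.236 without day 3, and 0.106 with no day block) and Dcn (log2 6.28, SE 0.91, adjusted p = 0.00885, or 0.0822 without day 3 and 0.09 without day 5, and 0.0855 with no day block) completed the 8 with the highest values. Dcn, the matrix proteoglycan decorin, had 38.9, 49.8, 56.1 and 41.5 CPM in EA2 and 0, 0.124, 0 and 0.17 CPM in EA3 in DMSO, and 171, 81.3, 93.1 and 33.4 CPM and 0.759, 3.94, 2.97 and 49.2 CPM in alectinib, with 1 EA3 library, that of day 5, well above the others. Fibroblast markers, of which Dcn is one, summed to 60.9 to 76.1 CPM in EA2 and 21.3 to 25 CPM in EA3 in DMSO, and their part in this result was not tested.

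No gene passed the test of a steady change of the line difference over the days in alectinib (0 of 12190 past an adjusted p of 0.05, 1003 at an unadjusted p under 0.05). With library size alone 0 passed and 994 were under 0.05 unadjusted, and with day in place of log2 day the numbers were 0 and 1289. On simulated counts this test found 14 of 100 changes of log2 1 per doubling of days and 92 of 100 of log2 2. The result of 0 therefore does not show that the line difference was stable over the days. Markers of endothelial and immune cells were read in both lines. Endothelial markers summed to 0.54 to 1.73 CPM in EA2 and 5.88 to 7.76 CPM in EA3, with Cdh5, Cldn5, Erg and Tie1 at 0 in both. Kdr was the 1 endothelial gene tested, with 0.103, 0, 0.23 and 0.231 CPM in EA2 and 4.46, 5.17, 1.82 and 2.09 CPM in EA3 (log2 difference 4.25, SE 0.75, adjusted p = 0.00754). Taking out day 1 gave 2 higher. Immune cell markers summed to 25.9 to 61.2 CPM in EA2 and 84.4 to 234.5 CPM in EA3, with Adgre1, Cd3e, Cd3g and Tyrobp at 0 in both. Of the immune genes 3 were tested: Cd14 (log2 difference 3.36, SE 0.45, adjusted p = 0.00338) and Csf1r (log2 difference 3.38, SE 0.86, adjusted p = 0.026, or 0.0561 without day 1, 0.0765 without day 2 and 0.0815 without day 3) were higher in EA3, and Cd68 (log2 difference -1.11, SE 0.28, adjusted p = 0.0267, or 0.0829 without day 1, 0.0939 without day 3 and 0.0745 without day 5, and 0.0952 with no day block) was lower.

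Finally, the differences were not spread evenly over the chromosomes. Over 9664 genes with an average log2 CPM of 3 or more, 16.2% were higher and 15.2% lower in EA3, and the median log2 difference was -0.01. The 16 mitochondrial genes among them had a median of 1.46, with 4 higher and 0 lower, but their daily medians ran from -0.54 to 1.30. On chromosome 4 the median was -0.40, with 204 of 618 genes lower and 48 higher, and the daily medians ran from -0.48 to -0.32. Chromosome 8 had a median of -0.36 and chromosome 10 one of -0.31. Chromosome 17, which carries both Alk and Eml4, had a median of 0.31, with 156 of 488 genes higher and 36 lower. On chromosomes 4, 8, 10 and 17 the daily medians kept 1 sign on 4 of 4 days, and the medians in DMSO were -0.32, -0.24, -0.23 and 0.52. This does not single them out, since daily medians in alectinib also kept 1 sign on chromosomes 2, 3, 5, 6, 7, 9, 13, 14, 15, 16 and 19. Within chromosome 17, the 36 genes between Alk and Eml4 had a median of 0.78 (24 higher, 1 lower), against 0.30 for the 450 genes elsewhere on it, although Alk and Eml4 themselves were lower in EA3. In runs of 25 neighbouring genes, the lowest median was -0.91, from Rad54b to Mms22l on chromosome 4 (mm10 chr4:11558922-24602950), where 18 genes were lower and 0 higher. The highest median was 0.90, from Zfp995 to Atp6v0c on chromosome 17 (chr17:21879570-24169702), where 13 genes were higher and 1 lower. Also among the highest was the run from Lbh to Rmdn2 on chromosome 17 (chr17:72918305-79693192), with a median of 0.89, 21 genes higher and 0 lower, and a DMSO median of 1.06. The run from Lbh to Rmdn2 lies between Alk and Eml4, so its genes are among the 36 given above. The number of copies of these regions was not measured here.

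**Figure D5:**
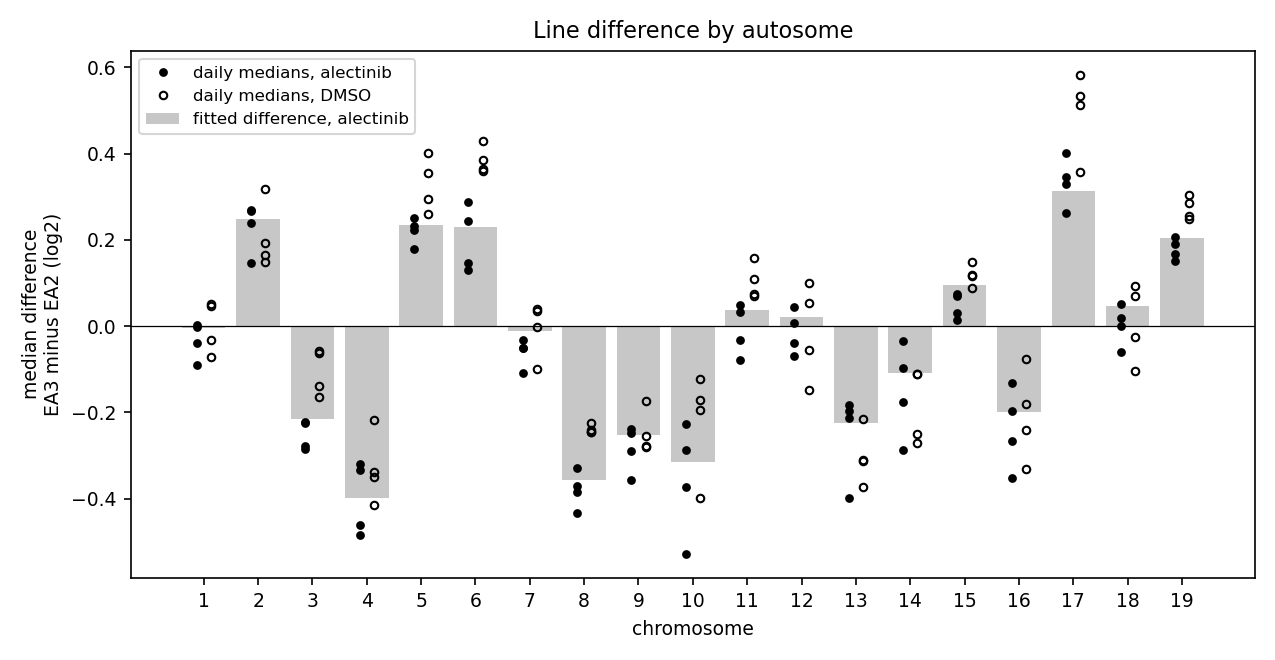
Median log2 difference EA3 minus EA2 of the genes of each autosome (average log2 CPM of 3 or more): bars are the fitted difference in alectinib, filled points the 4 daily medians in alectinib and open points the 4 daily medians in DMSO. Chromosomes 4, 8 and 10 lie under 0 and chromosomes 2, 5, 6 and 17 above it on each day in both treatments. Chromosomes 3, 9, 13, 14 and 16 also lie under 0, and chromosomes 15 and 19 above it, on each day in both.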

How the data were processed

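RNA of mouse EML4-ALK lines was sequenced as stranded mRNA libraries. The authors trimmed reads with bbduk, checked them with FastQC, aligned them to mm10 and counted them per gene with STAR, and deposited raw counts for 26 libraries. The aligner settings, annotation release and strand column are not given in the sources used here. The table has 55415 rows. Left out were 24 rows whose names are dates or blanks (0.129 to 0.201% of counts), 77 names with no match in GENCODE M21 (0.0162 to 0.062%), and 4182 genes on X and Y (2.08 to 3.58%).

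On the deposited counts, edgeR 4.0.16 (R 4.3.3, limma 3.58.1) gave TMM factors, filterByExpr by line and the robust quasi-likelihood test with Benjamini-Hochberg adjustment over all genes tested (threshold 0.05), in the model day plus line, over 8 alectinib or 8 DMSO libraries. The block came from matched days and not from a measured pairing. The interaction used 16 libraries with line and day as the block and 1 alectinib effect per line, and the change over days a line by log2 day term. Scripts were tested on simulated counts. DESeq2 1.42.0 was an alternative, beside other scalings, filters, the fit with no block and each day left out in turn. For a gene with at most 3 counts over the 4 libraries of a line, a ratio of normalised counts is given with its 95% counting interval, or, at 0, a bound at 3 counts over the 4 libraries. Intervals cover counting error only.

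Named genes are those the study names, the 12 protein-coding genes furthest to each side at an average log2 CPM of 4 or more with 1 sign on 4 days, up to 4 per list by p-value with the defining markers, 8 to each side of the interaction, and 6 on or off genes. Some genes that these rules name are not reported here. Others (Vim, Zeb1, Zeb2, Krt8, Krt18, Cdh1, Cd274, Ccnd1, Eno1 and the members of a list named for their direction, for failing the test or for being at 0) were chosen after their values were seen. The comparison and the 43 gene lists were chosen with earlier results of these data known. The 2 libraries of day 7 were left out.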

Additional observations from a re-analysis of the deposited data

Results flagged for a closer look

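Among the genes named above, 301 sets of 4 alectinib libraries of one line were screened for a single value apart from the other 3 (Dixon's ratio, 95% critical value), and 32 had one. Chance gives about 1 in 20. On day 1 in EA2, the values that stood above the other 3 libraries were Arsj at 102 CPM, Hnf4a at 3.1 CPM, Muc4 at 0.619 CPM and Vcan at 572 CPM. On day 3 in EA2, the values that stood above the other 3 libraries were Fgfr1 at 282 CPM, H2-DMa at 3.57 CPM and Nlrp2 at 98.96 CPM. On day 3 in EA2, the value that stood below the other 3 libraries was Eno1 at 605 CPM. On day 5 in EA2, the values that stood above the other 3 libraries were Col1a1 at 16.1 CPM, Lox at 14.9 CPM, Mmp14 at 218 CPM and Ncam1 at 94.7 CPM. On day 1 in EA3, the values that stood below the other 3 libraries were Bcl2l1 at 118 CPM and Loxl2 at 145 CPM. On day 2 in EA3, the value that stood below the other 3 libraries was Fst at 1.24 CPM. On day 3 in EA3, the values that stood above the other 3 libraries were Csf1r at 6.99 CPM, Dusp6 at 49.95 CPM, Kcnu1 at 1.63 CPM and Osgin1 at 571 CPM. On day 3 in EA3, the value that stood below the other 3 libraries was Ctse at 13.4 CPM. On day 5 in EA3, the values that stood above the other 3 libraries were Cd36 at 118 CPM, Chil1 at 366 CPM, Col6a2 at 155 CPM, Cxcl12 at 163 CPM, Dcn at 49.2 CPM, Lbp at 568 CPM, Muc5b at 29.5 CPM, Peg10 at 140.5 CPM and Pparg at 81.7 CPM. On day 5 in EA3, the values that stood below the other 3 libraries were Myh14 at 53.7 CPM, Pdgfb at 69.99 CPM and Sos1 at 82.1 CPM. The cause of these values was not tested.

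For 33 of the named genes, the EA3 minus EA2 difference in alectinib differed from that in DMSO by edgeR's test of the interaction (adjusted p under 0.05). Values are the alectinib difference minus the DMSO difference on the log2 scale. The difference had one sign in both treatments and was larger in size in alectinib for Nqo1 with -3.84, Irs2 with -2.02, Cav1 with -1.74, Snai2 with -1.48, Cdt1 with -1.45, Vim with -1.41, Cdca7 with -1.35, Bid with 1.36, Notch1 with 2.12, Muc1 with 2.75, Lbp with 3.45, Bicc1 with 3.63, Ccdc88c with 3.87, Flt4 with 4.21, Ckb with 4.96 and Padi4 with 5.24. It had one sign and was smaller in size in alectinib for Krt7 with -3.13, Clu with -1.63, Masp1 with 1.95, Rgs16 with 3.83, Ifi202b with 4.46 and Dcn with 6.28. The fitted sign differed between the treatments for Prl2c3 with -8.95, Prl2c2 with -7.63, Dll1 with -4.63, Cdh17 with -4.34, Col6a2 with -3.67, Pparg with -3.40, Angptl4 with -3.34, Cxcl1 with -2.72, Pkp2 with -1.63, Cd276 with 1.43 and Etv4 with 2.57. The call held whichever day was left out for 10 of them (Angptl4, Bicc1, Cdh17, Ckb, Col6a2, Dll1, Flt4, Ifi202b, Muc1 and Pparg). The other 23 lost it without 1 day or more, and the highest adjusted p with 1 day left out was 0.0785 for Bid, 0.0776 for Cav1, 0.11 for Ccdc88c, 0.103 for Cd276, 0.125 for Cdca7, 0.0949 for Cdt1, 0.0822 for Clu, 0.126 for Cxcl1, 0.09 for Dcn, 0.139 for Etv4, 0.0816 for Irs2, 0.128 for Krt7, 0.144 for Lbp, 0.104 for Masp1, 0.101 for Notch1, 0.107 for Nqo1, 0.117 for Padi4, 0.147 for Pkp2, 0.0517 for Prl2c2, 0.0822 for Prl2c3, 0.236 for Rgs16, 0.106 for Snai2 and 0.107 for Vim. With library size alone the call was lost for Cdca7 (adjusted p = 0.0585). With no day block the call was lost for Angptl4 (adjusted p = 0.0529), Cdca7 (adjusted p = 0.0637), Clu (adjusted p = 0.0886), Col6a2 (adjusted p = 0.245), Cxcl1 (adjusted p = 0.0572), Dcn (adjusted p = 0.0855), Lbp (adjusted p = 0.334), Masp1 (adjusted p = 0.0816), Rgs16 (adjusted p = 0.106) and Snai2 (adjusted p = 0.296).

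The 2 libraries labelled EA3 on day 7, which enter no comparison here, resembled EA2 more than EA3. The alectinib one correlated with the EA2 alectinib libraries at up to 0.986 and the DMSO one with the EA2 DMSO libraries at up to 0.974 (Pearson, log2 CPM).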

How the results depend on the processing

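The number of genes called between the lines in alectinib, 3845, stayed between 2817 and 5654 over 8 other settings of test, scaling, filter, block, libraries and genes (4518 with DESeq2, 2817 where a gene needed 10 counts in every library, 5654 with all 12 alectinib libraries in 1 fit). A size of at least 1 on the log2 scale left 2292, by construction. Leaving out 1 day gave 1903 to 3419. The DMSO count, 3543, lay between 2414 and 4945, and between 2498 and 3462 with 1 day left out. With library size alone, the median line difference in DMSO moved by -0.159 on the log2 scale and 39.5% of the calls were higher in EA3. The test of alectinib against DMSO differences was the least steady. Its 382 calls became 1028 with DESeq2 and 1437 with no filter on low counts, and 50 to 312 with 1 day left out; the cause was not tested. With library size alone it gave 444 calls, 76.4% of them higher in alectinib. The test of a change over the days called 0 genes with edgeR under TMM, library size and day in place of log2 day, and DESeq2 was not run for it.

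With no replicate block (no day term), 4651 genes were called in alectinib, 2848 in DMSO and 261 in the interaction, 3738 of the 4651 also called with it. The same-day deviations of the lines in alectinib correlated at -0.0778, -0.301, -0.0352 and -0.107 on days 1, 2, 3 and 5, so libraries of one day did not deviate together.

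Of the values of single genes under these settings, 63 lost and 21 gained a call in alectinib, 30 and 27 in DMSO, and 70 and 76 in the interaction, and none changed sign with a call. Of the counts of genes per list, 160 moved by over 1.5 times and 872 did not. The demand for 10 counts in every library removes by construction the genes silent in one line, among them Epcam. The medians of chromosomes 4, 8, 10 and 17 moved by less than 1 SD of their daily values in the settings run. Genes at 0 in one line have a bound and not a fold, and levels of a few CPM rest on few reads.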

Other observations

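The libraries labelled EA3 on day 7, 1 in DMSO and 1 in alectinib, went against their label. In alectinib the correlation of log2 CPM was 0.963 to 0.986 with the EA2 libraries, 0.8 to 0.821 with the EA3 libraries of days 1 to 5, and 0.823 to 0.842 with the libraries of EA1, the third line of the series. In DMSO it was 0.939 to 0.974 with EA2, 0.824 to 0.864 with EA3 and 0.848 to 0.878 with EA1. Genes that separate the lines gave the same reading. Epcam had 7 counts in the DMSO library and 0 in the alectinib library, Cldn4 had 0 in both, and Krt7 had 0 and 7. Sox2 had 766 and 385 counts, and Vcan had 1218 and 3433. No value above rests on these libraries.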
